A study of Mus musculus with 21 samples.

Results

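HOX genes encode homeodomain transcription factors that give cells their position along the body axis and the limbs. In the mouse they lie in 4 clusters, and within a cluster the order of the genes follows the order in which they are used from head to tail. Polycomb complexes keep unused genes of a cluster silent, and PBX and MEIS proteins are DNA-binding partners of the HOX factors. The bones of the skull vault form in front of the HOX domain, partly from cranial neural crest that lacks HOX expression. The genes described here are 38 HOX genes taken by symbol. A member was measured where a row of the array table carried its symbol alone, and the row with the highest mean was used where a gene had several. This gave 36 of the 38 members, among 22180 genes measured in the same way. Hoxa11 and Hoxd4 were present only on rows that also carry the symbol of a neighbour.

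Expression was measured on 21 Affymetrix Mouse Gene 2.0 ST arrays, 3 for each of 7 treatments. Osteoblasts, the cells that lay down bone matrix, were isolated from calvarial (skull vault) strips of C57BL/6J pups that were 7 to 10 days old. All cultures were at passage 2, received differentiation medium with ascorbic acid and β-glycerophosphate from day 3, and were deprived of serum for 24 h from day 10. They were then treated for 4 h in serum-free medium with albumin. One group received vehicle. Fragments of parathyroid hormone (PTH), which regulates bone turnover and binds the receptor Pth1r on osteoblasts, were given to the other groups. Human hPTH(1-34), human hPTH(1-31) and PTH(1-36), which keep the N-terminal end of the hormone, were each given at 100 nM. Bovine bPTH(3-34) and human hPTH(7-34), which lack N-terminal residues, were also given at 100 nM. A bovine peptide amide, (D-Trp12,Tyr34)-PTH(7-34), written bPTH(7-34) here, was given at 1000 nM. The labels state that cells were prepared independently for each biological replicate, and they do not say how many animals were pooled. The cultures are primary and mixed, and in such bulk RNA fewer cells of a type cannot be told apart from less RNA per cell.

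The values are log2 signals with array medians between 3.49 and 3.61, and arrays of 1 group correlated at r between 0.990 and 0.993 across genes. Osteoblast markers were present: Col1a1 (13.2) and Alpl (8.93) had high vehicle means, and all 7 markers measured lay above the array median. Bglap, a late osteoblast marker, was nearest to it at 3.73. All 9 macrophage markers were also high, from 7.20 to 12.2. Of the other cell types checked, 4 of 5 endothelial, 4 of 5 chondrocyte, 5 of 5 muscle and 4 of 6 neuronal markers lay above the array median. For comparison, 13641 of all 22180 genes lay above it. The median percentiles of these 4 lists among all genes were 54.6, 54.9, 46.7 and 43.1 in the same order. The counts alone therefore do not show that such cells were present.

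The promoters of the members on which the results turn are shown so that the letters can be read beside the values. Each is the run of 250 bases upstream of the annotated start in RefSeq, build GRCm38.p6, written 5′ to 3′ on the strand of the gene. The Hoxd8 promoter lies at chr2:74704365-74704614 on the plus strand, Hoxa2 at chr6:52164832-52165081 on the minus strand, Hoxa7 at chr6:52218574-52218823 on the minus strand and Hoxd1 at chr2:74762730-74762979 on the plus strand. Capitals mark matches, on either strand, to the short cyclic AMP response element TGACG or to the HOX-PBX motif TGATNNAT.
Hoxd8: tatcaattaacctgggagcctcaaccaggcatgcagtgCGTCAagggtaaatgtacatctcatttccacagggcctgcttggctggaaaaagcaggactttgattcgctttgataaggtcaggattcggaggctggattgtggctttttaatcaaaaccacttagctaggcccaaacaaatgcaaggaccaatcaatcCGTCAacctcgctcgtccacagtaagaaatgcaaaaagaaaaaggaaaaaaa
Hoxa2: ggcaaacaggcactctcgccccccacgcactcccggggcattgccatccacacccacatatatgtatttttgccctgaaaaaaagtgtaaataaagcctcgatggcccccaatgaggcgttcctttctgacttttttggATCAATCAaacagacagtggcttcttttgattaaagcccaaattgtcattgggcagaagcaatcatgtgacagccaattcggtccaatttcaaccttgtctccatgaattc
Hoxa7: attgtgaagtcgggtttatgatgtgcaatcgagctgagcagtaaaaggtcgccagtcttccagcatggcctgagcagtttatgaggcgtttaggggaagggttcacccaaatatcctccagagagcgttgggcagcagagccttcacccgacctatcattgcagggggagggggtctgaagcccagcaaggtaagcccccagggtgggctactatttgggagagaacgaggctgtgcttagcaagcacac
Hoxd1: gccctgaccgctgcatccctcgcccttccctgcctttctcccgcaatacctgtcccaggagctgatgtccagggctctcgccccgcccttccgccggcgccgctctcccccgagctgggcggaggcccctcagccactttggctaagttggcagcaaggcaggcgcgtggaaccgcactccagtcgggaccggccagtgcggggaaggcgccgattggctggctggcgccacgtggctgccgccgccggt
Hoxd8 carried 2 short elements and Hoxa2 carried 1 HOX-PBX match, while the windows of Hoxa7 and Hoxd1 carried neither motif. In all, 24 promoters of 22 HOX genes were found in the table. The full cyclic AMP response element TGACGTCA was in 0 of them, against 1.55% of 32841 promoters of all genes. The short element, which any full element also contains, was in 7 of the 24 HOX promoters, against 17.8% of all promoters. The HOX-PBX motif was in 4 of the 24, against 7.69%. The retinoic acid response element made of direct repeats, searched on both strands, was in 0, against 0.00913%. The HOX promoters had a median GC content of 58.6% and a median of 12.5 CpG sites, against 52.4% and 6 for all promoters. The part of this composition in the motif counts was not tested.

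Most HOX genes gave low signals in the calvarial cultures. With vehicle, the 36 member means ran from 2.20 to 5.30 with a median of 3.34, below the mean of the vehicle array medians (3.57), whereas the median over all 22180 genes was 4.44. Only 9 of the 36 lay above the array median, against 13641 of all 22180 genes. Since the table has no detection calls, each member was also set against 1409 sensory receptor genes (olfactory, vomeronasal and trace amine receptors), taken here as mostly silent in these cells, whose vehicle means had a median of 1.74 and a 95th percentile of 3.47. Not all are silent: 57 lay above the array median, the highest at 11.2, and the F test called 27. By this reference 15 of the 36 HOX genes (41.7%) lay above the 95th percentile, against 63.3% of all genes. Against the stricter 99th percentile (4.57) the 3 members Hoxa2, Hoxa4 and Hoxd8 remained above. HOX probes and sensory receptor probes may differ in base composition, whose part in these levels was not tested. Signals of different probe sets are not on 1 scale, so each gene is read against the array and the reference, and an order of HOX genes is not an order of transcript amounts.

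**Figure D1:**
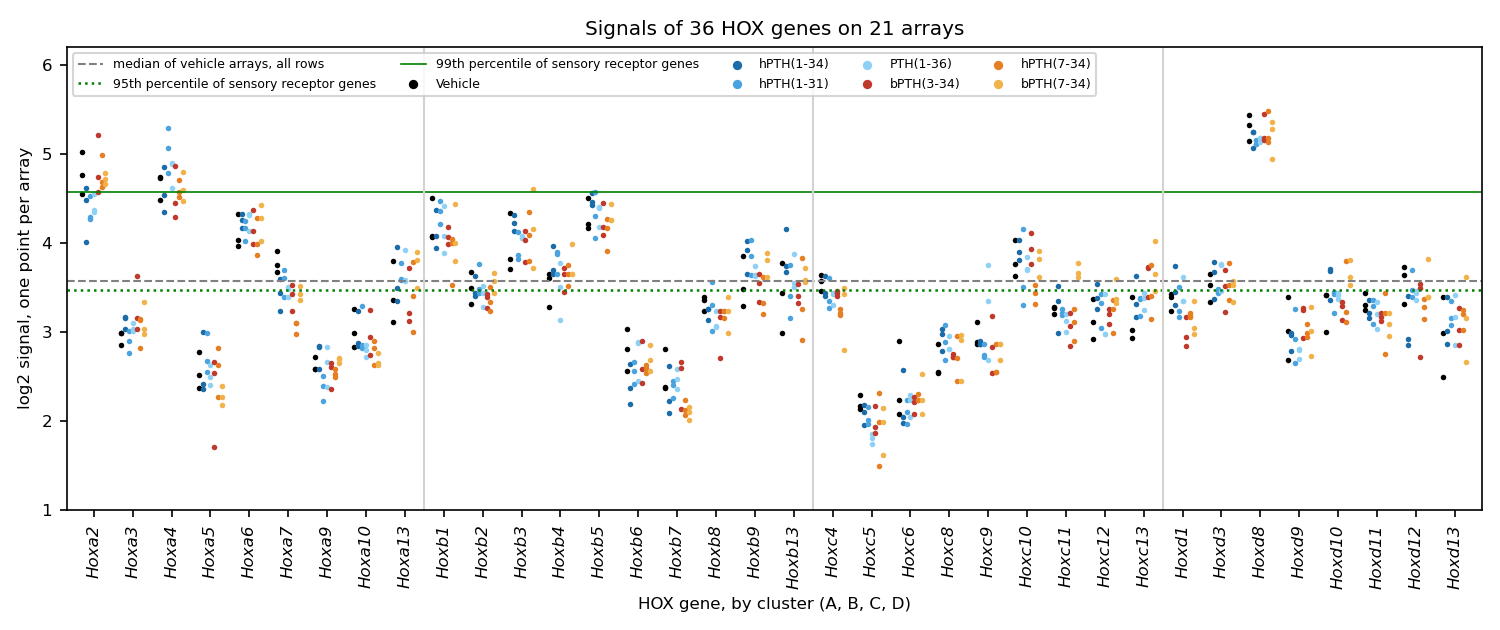
Log2 signal of each of the 36 measured HOX genes on all 21 arrays, ordered by cluster and coloured by treatment, with the mean of the vehicle array medians (3.57, dashed) and the 95th (3.47) and 99th (4.57) percentiles of the sensory receptor genes. All points of Hoxd8 lie above the 99th percentile line, and most other genes lie near or below the dashed line in every treatment.

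Hoxd8, a trunk HOX gene of the HOXD cluster, had vehicle signals of 5.32, 5.43 and 5.14, a mean of 5.30 ± 0.15 (SD, n = 3). All 3 were well above the array median, and over all 21 arrays Hoxd8 stayed between 4.94 and 5.48. Its vehicle mean stood at the 59.7th percentile of all genes. Hoxa2, which specifies the skeleton of the second pharyngeal arch, had vehicle signals of 4.55, 5.02 and 4.76 (mean 4.78 ± 0.24, SD, n = 3; 54.0th percentile). Hoxa4, a gene of the neck region, had 4.74, 4.73 and 4.48 (mean 4.65 ± 0.15, SD, n = 3; 52.6th percentile). These 3 genes thus reached only the middle of the distribution of all genes.

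Other members above the array median were Hoxb5 (4.16, 4.21 and 4.50 with vehicle), Hoxb1 (4.50, 4.08 and 4.06), Hoxa6 (4.32, 3.96 and 4.03) and Hoxb3 (3.82, 3.70 and 4.33). All their vehicle arrays lay above the array median. Hoxb1 acts in hindbrain patterning, Hoxb3 in the hindbrain and pharyngeal arches, and Hoxa6 and Hoxb5 in the neck and trunk. Hoxc10 (mean 3.81 ± 0.20, SD, n = 3) and Hoxa7 (3.78 ± 0.12) were the remaining members with a mean above the array median. Of the members between this median and the sensory receptor reference, Hoxd12, Hoxc4, Hoxb9, Hoxb4, Hoxd3 and Hoxb2 had means between 3.49 and 3.56, within 0.1 of the reference, which their replicate spread does not resolve. Over all treatments, 6 members (Hoxd8, Hoxa2, Hoxa4, Hoxa6, Hoxb3 and Hoxb5) were above the highest array median on all 21 arrays. Another 10 members, among them Hoxa5, Hoxb6, Hoxb7, Hoxc5, Hoxc6 and Hoxc8, were below the lowest array median on all 21. For Hoxb5 this depends on the row. Its other row, which was not used, had a vehicle mean of 4.04 and a lowest value of 3.50, below the highest array median (3.61).

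Ordered by paralog number, which follows position along the body axis, the members above the sensory receptor reference were 5 of the 7 with numbers 1 to 3, 7 of the 14 measured with numbers 4 to 8, and 3 of the 15 measured with numbers 9 to 13. Above the array median these counts were 3, 5 and 1. The 3 members with high numbers above the reference were Hoxb9, Hoxc10 and Hoxd12, and only Hoxc10 passed the array median. The limb genes Hoxa13 and Hoxd13, which pattern the digits, had vehicle means of 3.42 ± 0.35 and 2.95 ± 0.45 (SD, n = 3), below the reference. Hoxc5 (2.20 ± 0.08) was below it by more. These counts are a description, with no test, and members of 1 cluster share their chromatin region.

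By cluster, HOXA (chr6:52162417-52260880) had 4 of 9 measured members above the array median, HOXB (chr11:96194316-96368254) had 3 of 10, HOXC (chr15:102921131-103036856) had 1 of 9 and HOXD (chr2:74668225-74765142) had 1 of 8. The medians of the vehicle means were 3.42, 3.50, 3.11 and 3.34. In the HOXD cluster the other members measured ran from 2.95 (Hoxd13) to 3.56 (Hoxd12), and of the rows used only that of Hoxd8 was above the array median. The row that Hoxd4 shares with Hoxd3 was above it too, with a vehicle mean of 3.81. In the HOXA cluster Hoxa2, Hoxa4, Hoxa6 and Hoxa7 passed the array median, while the rows of Hoxa3 alone (2.94) and Hoxa5 (2.55), which lie among them on the chromosome, did not. Another row, which Hoxa3 shares with 5730446D14Rik, had a vehicle mean of 4.49 and stayed at or above 3.70 on all arrays, so the level of Hoxa3 depends on the row.

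The genes that flank the clusters were set against the same reference. Of the 3 nearest protein-coding genes on each side of each cluster, 22 of 24 were measured, and 18 of them lay above the array median with a median vehicle mean of 6.72. Beside HOXA, Skap2 stood at 7.33 and Hibadh at 7.71, and beside HOXD, Lnpk stood at 6.25 and Mtx2 at 7.62. The homeobox genes at the ends of 2 clusters were lower: Evx1 beside HOXA had a mean of 3.17 and Evx2 beside HOXD one of 3.75. Beside HOXB, Ttll6 (3.00), Calcoco2 (2.33) and Skap1 (3.52) were also at or below the array median, so the step at the edge of this cluster was not seen in its nearest neighbours.

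**Figure D2:**
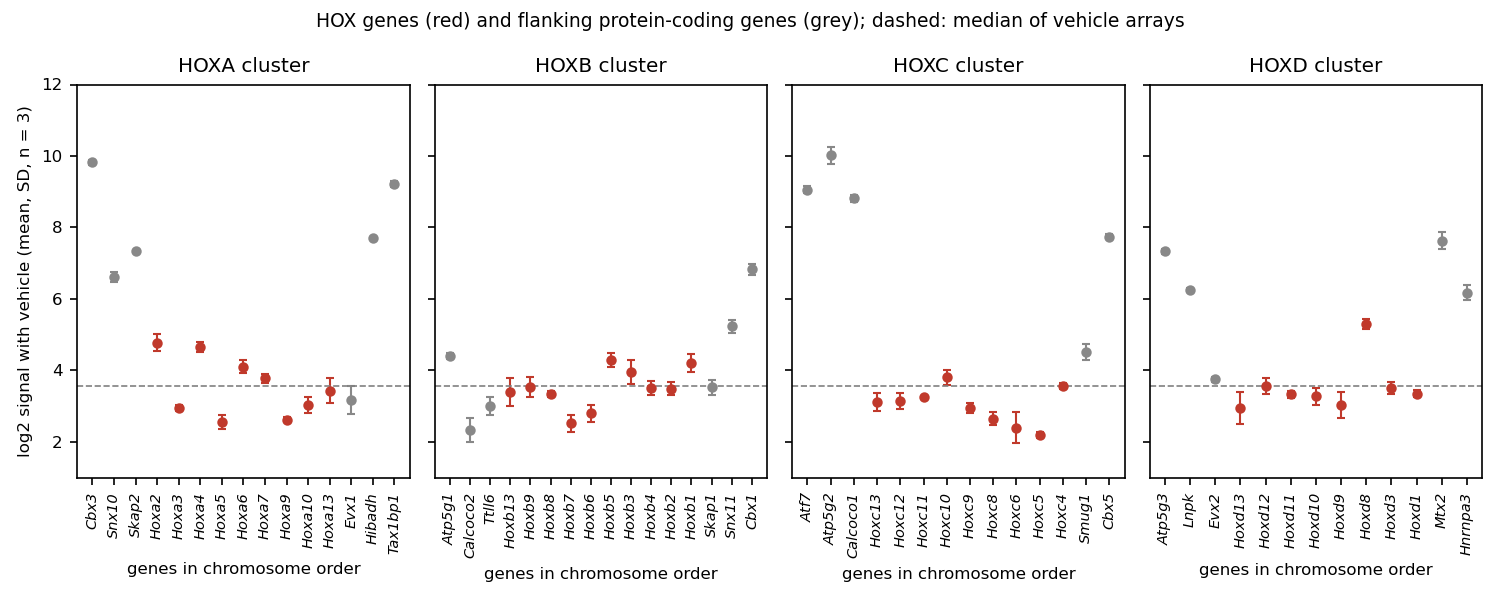
Mean log2 signal with vehicle (error bars, SD of 3 arrays) of the HOX genes (red) and of the 3 nearest protein-coding genes on each side (grey), in chromosome order for each of the 4 clusters, with the mean of the vehicle array medians dashed (3.57). Of the flanking genes 18 of 22 lie above the dashed line, against 9 of 36 HOX genes and 13641 of all 22180 genes.

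All 8 measured HOX cofactors passed the sensory receptor reference in the same cultures, from 3.76 (Pbx4) to 8.01 (Meis2), with Meis1 at 6.53 and Pbx3 at 6.35. So did all 23 measured polycomb and trithorax genes, from 3.90 (Cbx7) upwards. Among 24 measured homeobox genes that pattern the head, 21 passed it, and 14 passed the stricter 99th percentile. The highest were Prrx1 at 11.0, Alx1 at 8.14, Six2 at 7.80 and Dlx5 at 7.40. The median of this list was only 4.67, with a median percentile of 52.8 among all genes. The counts in this paragraph are against 1 fixed reference, which 63.3% of all genes passed, and no probe was set against another. Of 8 regulators of HOX onset, 7 were measured and 6 passed the reference, including Gdf11 at 6.66. Cdx4 was below it at 2.32.

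Of 16 noncoding genes of the HOX clusters, 7 were measured and 2 passed the reference, Hoxd3os1 at 4.28 and Hoxaas3 at 3.94. Hotair, the long noncoding RNA of the HOXC cluster, lay at its edge with 3.47. The microRNA genes Mir10b (1.38), Mir196a-1 (2.77), Mir196a-2 (1.99) and Mir615 (3.16) were below it. The arrays measure the precursor transcript or hairpin, not the mature strand. The miR-10 and miR-196 microRNAs target HOX messages among others. Mature sequences from these loci and from Mir10a and Mir196b (RefSeq, GRCm38.p6) are shown with the seed, bases 2 to 8, in capitals.
miR-10a-5p: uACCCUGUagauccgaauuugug
miR-10b-5p: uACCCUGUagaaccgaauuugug
miR-196a-5p: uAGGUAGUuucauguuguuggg
miR-196b-5p: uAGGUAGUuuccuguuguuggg
miR-615-3p: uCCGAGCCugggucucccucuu
The first pair shares the seed ACCCUGU and the second pair shares AGGUAGU, while miR-615-3p has a seed of its own, CCGAGCC. Mir10a shared its row with Hoxb4 and had no row of its own, and Mir196b was not measured.

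Treatment changed few HOX genes. In limma, with p-values adjusted by Benjamini-Hochberg over all 22180 genes and a call at an adjusted p under 0.05, 1 of 36 members was called with hPTH(1-34) against vehicle (background 8.64% of all genes). With hPTH(1-31) 0 members were called (background 8.70%; 3 at an unadjusted p under 0.05), and with PTH(1-36) 0 (7.23%; 2 unadjusted). With bPTH(3-34) 0 were called (0.00%; 4 unadjusted), with hPTH(7-34) 1 (0.0721%) and with bPTH(7-34) at 1000 nM 0 (0.00%; 7 unadjusted). Both calls were Hoxa7. All 6 contrasts use the same 3 vehicle arrays.

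Confidence intervals bounded the size of the members' differences in array signal. They do not bound changes in transcript amount, since most members lay below the array median, where a fold may be understated. Over 36 members and 6 treatments, all 216 of the 95% confidence intervals lay within a 2-fold change in either direction, and 154 of them within 1.5-fold. The median distance from a difference to either bound of its interval was 0.32 log2. The within-group spread of the members (median residual SD 0.19, range 0.12 to 0.31) was close to that of all genes (0.18). The median difference from vehicle was 0.03 with hPTH(1-34), -0.04 with hPTH(1-31) and -0.04 with PTH(1-36), beside medians of -0.01, -0.02 and -0.02 over all genes. For bPTH(3-34), hPTH(7-34) and bPTH(7-34) it was -0.06, -0.11 and -0.03, beside 0.00, 0.00 and -0.01 over all genes.

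At an unadjusted p under 0.05, 5 members (13.9%) differed from vehicle with hPTH(1-34), against 19.7% of all genes. The shares were 8.33% against 19.4% with hPTH(1-31), and 5.56% against 18.9% with PTH(1-36). With the N-terminally truncated peptides they were 11.1% against 5.92% for bPTH(3-34), 11.1% against 8.19% for hPTH(7-34), and 19.4% against 5.19% for bPTH(7-34). The members whose 3 treated arrays did not overlap the vehicle arrays numbered 2, 3, 4, 4, 6 and 7 in the same order of treatments, against 23.4%, 22.1%, 20.5%, 10.1%, 12.3% and 8.48% of all genes. Vehicle had the highest of the 7 group means in 11 of 36 members and the lowest in 3, against 14.67% and 12.71% of all genes.

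**Figure D3:**
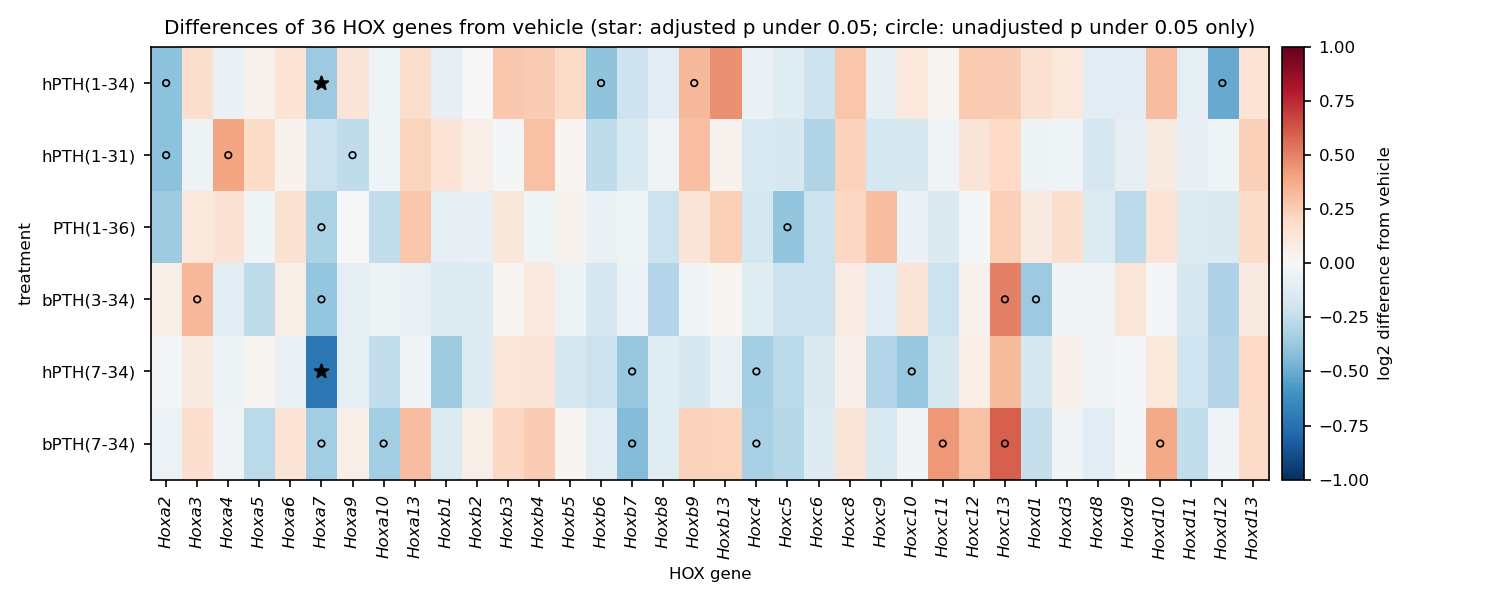
Log2 difference from vehicle of each of the 36 HOX genes (columns, by cluster) for the 6 treatments (rows), as a colour scale from -1 to 1. Stars mark the 2 calls at an adjusted p under 0.05, both in the Hoxa7 column, and circles mark differences with an unadjusted p under 0.05 only.

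Hoxa7, which patterns the trunk skeleton, was the member with the clearest difference. Its signals were 3.75, 3.67 and 3.91 with vehicle and 2.97, 3.10 and 3.10 with hPTH(7-34). The 3 hPTH(7-34) arrays were the lowest of all 21, and the vehicle arrays held the highest value. Hoxa7 fell by 0.72 ± 0.11 (log2, SE) with hPTH(7-34) (limma adjusted p = 0.00759), and it was 1 of 16 genes called in that contrast. The hPTH(7-34) mean of 3.06 is below the sensory receptor reference of 3.47, so the size of the fall at the transcript level is not known.

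With hPTH(1-34) the Hoxa7 signals were 3.43, 3.23 and 3.59, all below the lowest vehicle array. The fall was 0.36 ± 0.11 (limma adjusted p = 0.0449), to a mean of 3.42 that is below the sensory receptor reference of 3.47. With PTH(1-36) they were 3.50, 3.39 and 3.48, a difference of -0.32 (adjusted p = 0.0867), and with bPTH(3-34) 3.53, 3.23 and 3.42, a difference of -0.38 (adjusted p = 0.685). Both groups lay below all vehicle arrays without a call. With hPTH(1-31) they were 3.69, 3.39 and 3.60, which overlapped vehicle (difference -0.22, adjusted p = 0.287), and with bPTH(7-34) 3.42, 3.51 and 3.36 (difference -0.35, adjusted p = 0.841), again below all vehicle arrays. The mean of hPTH(1-34), hPTH(1-31) and PTH(1-36) against vehicle gave 1 HOX call (background 11.9%), again Hoxa7, with -0.30 ± 0.09 and an adjusted p of 0.0316.

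The 6 differences of Hoxa7 rest on the same vehicle arrays, so the contrast of hPTH(7-34) with hPTH(1-34) at matched dose was read beside them. There 2 members were called (background 10.9%), and Hoxa7 was lower with hPTH(7-34) by 0.36 ± 0.11 (limma adjusted p = 0.0380), with no overlap between the 6 arrays. Over all members 7 of 36 did not overlap in this contrast, against 28.8% of all genes. Against bPTH(3-34), the other truncated peptide at this dose, hPTH(7-34) gave 0 HOX calls (background 0.0496%; 3 at an unadjusted p under 0.05, background 5.07%), and the Hoxa7 difference of -0.34 had a 95% interval from -0.56 to -0.11 (adjusted p = 0.707). The call with hPTH(7-34) against vehicle was lost without vehicle replicate 3 or without hPTH(7-34) replicate 1, with an adjusted p of at most 0.0801. The call with hPTH(1-34) against vehicle was lost in 15 of the 21 fits that left out 1 array, with adjusted p from 0.0229 to 0.219, and was kept only without vehicle replicate 2, hPTH(1-31) replicate 1 or 2, hPTH(1-34) replicate 3, or bPTH(3-34) replicate 1 or 2. Its adjusted p was 0.0927 with all rows tested, 0.128 with a trended variance and 0.194 with only the groups of the contrast, a setting in which the hPTH(7-34) call was lost too (0.397, with 0 genes called in all). The calls of Hoxa7 between hPTH(7-34) and hPTH(1-34), and for the mean of the intact peptides against vehicle, were each lost in 5 of these fits. The first was lost without hPTH(1-34) replicate 1 or 3 or any hPTH(7-34) array (up to 0.174), and with all rows tested, renewed quantile normalization, a trended variance or only these groups (0.0759 to 0.123). The second depended on replicate 2 of hPTH(1-31), hPTH(1-34) and PTH(1-36) and on vehicle replicates 1 and 3, each of which ended it when left out (up to 0.186), and with all rows tested, a trended variance or only these groups (0.0658 to 0.100). The row that Hoxa7 shares with the noncoding RNA Mira had a vehicle mean of 2.47 and was called in no contrast with vehicle (smallest adjusted p = 0.526). Beside the Hoxa7 fall with hPTH(7-34), all 9 macrophage markers had positive differences from vehicle (median 0.15, 0 called; 2 at an unadjusted p under 0.05) and all 5 muscle markers had negative ones (median -0.18, 0 called; 0 unadjusted). Their part in the result was not tested.

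**Figure D4:**
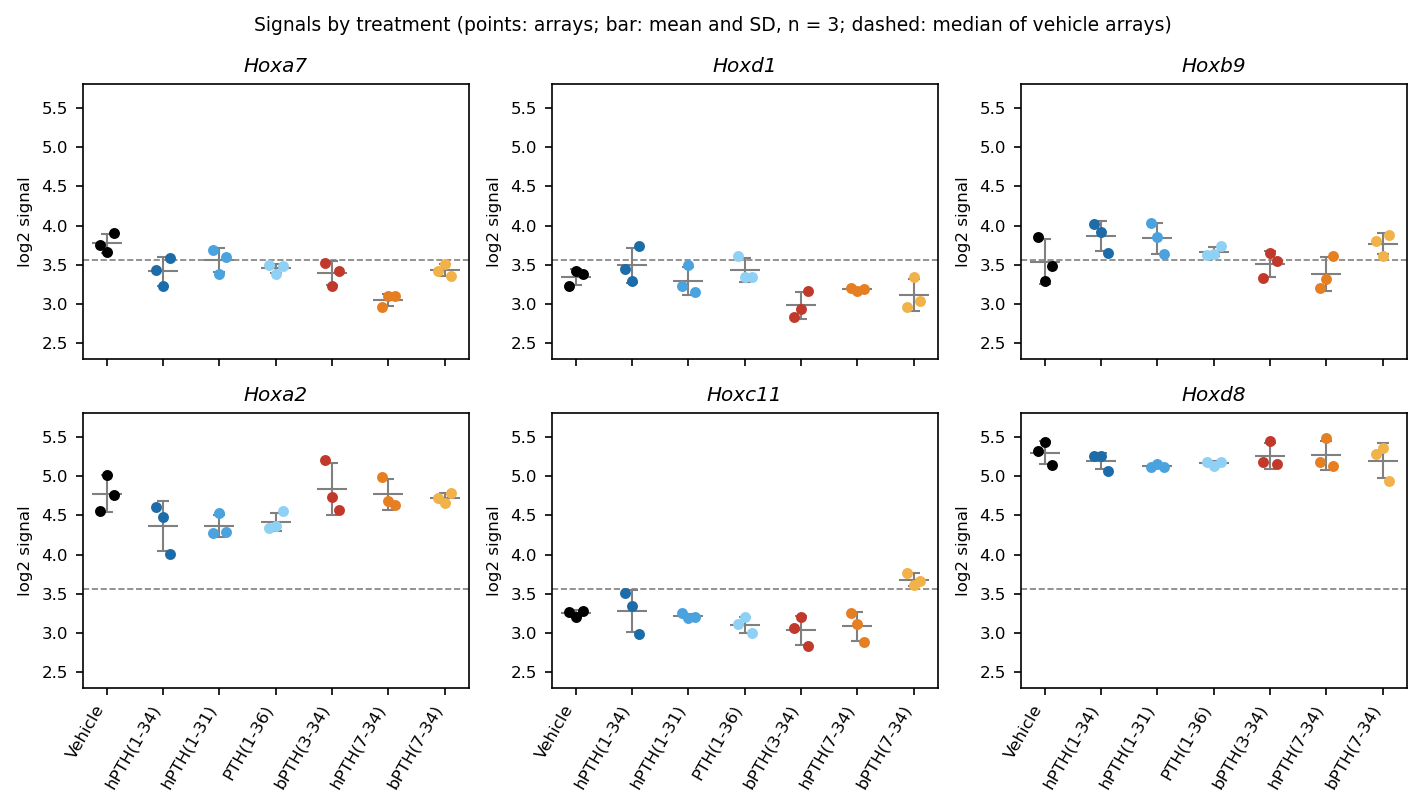
Log2 signal of 6 HOX genes on each array by treatment, with the group mean and SD (n = 3) and the mean of the vehicle array medians dashed. The 3 hPTH(7-34) points of Hoxa7 (2.97 to 3.10) lie below every other point of that gene, and Hoxd8 lies above the dashed line in every treatment.

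The second member called between hPTH(7-34) and hPTH(1-34) was Hoxb9, a thoracic gene that acts in rib patterning. Its signals were 4.02, 3.92 and 3.65 with hPTH(1-34) and 3.20, 3.32 and 3.62 with hPTH(7-34). The groups did not overlap, but the nearest arrays were 3.65 and 3.62, and the vehicle arrays (3.85, 3.29 and 3.48) spanned both. The hPTH(7-34) mean of 3.38 is below the sensory receptor reference. The difference was -0.48 ± 0.15 (limma adjusted p = 0.0450), and it was lost in 12 of the 21 fits that left out 1 array (adjusted p from 0.0227 to 0.181). It was kept only without vehicle replicate 1 or 2, hPTH(1-31) replicate 1 or 3, hPTH(1-34) replicate 3, bPTH(3-34) replicate 1 or 2, bPTH(7-34) replicate 2 or hPTH(7-34) replicate 3. With the other settings that ended it the adjusted p ran from 0.0529 to 0.108. Hoxc10 in the same contrast differed by -0.49 without a call (adjusted p = 0.0715). With the replicate number as a block in the limma fit, Hoxc10 was called and Hoxb9 was not (adjusted p = 0.0529 for Hoxb9). With only the 2 groups of the contrast in the fit, Hoxc10 was the 1 member called, and Hoxa7 and Hoxb9 were not (adjusted p = 0.120 and 0.106).

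Between bPTH(3-34) and hPTH(1-34), 1 member was called (background 9.32%): Hoxd1, which has a role in the wiring of pain-sensing neurons. Its signals were 3.45, 3.30 and 3.74 with hPTH(1-34) and 2.84, 2.94 and 3.17 with bPTH(3-34). The bPTH(3-34) arrays lay below those of hPTH(1-34) and also below the vehicle arrays (3.23, 3.42 and 3.39). The difference between the peptides was -0.51 ± 0.13 (limma adjusted p = 0.0172), whereas that from vehicle was -0.36 (adjusted p = 0.731). The bPTH(3-34) mean of 2.98 is below the sensory receptor reference. The peptides differ both in their N-terminal end and in species. The call was lost without hPTH(1-34) replicate 3 or bPTH(3-34) replicate 1 or 2, with an adjusted p of at most 0.102, and with only the groups of the contrast (0.0984).

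The mean of the 3 peptides with an intact N-terminal end was also set against bPTH(3-34), a comparison that does not use the vehicle arrays. It gave 2 HOX calls, 1 in each direction (background 12.6%). Hoxd1 was higher with the intact peptides by 0.43 ± 0.11 (limma adjusted p = 0.0122), a call lost without bPTH(3-34) replicate 1 or 2 (adjusted p of at most 0.100). Hoxa2 was lower with them by 0.46 ± 0.14 (adjusted p = 0.0372).

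Hoxa2 had signals of 4.61, 4.48 and 4.01 with hPTH(1-34), 4.27, 4.53 and 4.29 with hPTH(1-31), 4.34, 4.37 and 4.55 with PTH(1-36) and 5.21, 4.74 and 4.57 with bPTH(3-34). The hPTH(1-34) group reached into the range of bPTH(3-34), and the other intact groups lay just below its lowest array. Against vehicle the intact peptides differed by -0.41, -0.41 and -0.36 (adjusted p = 0.177, 0.172 and 0.267), with 0 calls. The Hoxa2 call against bPTH(3-34) was lost in 7 of the 21 fits that left out 1 array, namely hPTH(1-31) replicate 1 or 3, hPTH(1-34) replicate 3, PTH(1-36) replicate 1 or 2, or bPTH(3-34) replicate 1 or 2, with an adjusted p of up to 0.306. With all rows tested it was 0.0743 and with only the groups of the contrast 0.0764.

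No HOX call separated the peptides that keep the N-terminal end from each other. Between hPTH(1-31) and hPTH(1-34) 0 members were called (background 0.00%; 3 at an unadjusted p under 0.05, background 4.48%), and between PTH(1-36) and hPTH(1-34) 0 (background 0.00451%; 1 unadjusted, background 6.42%). In each of these contrasts 3 members had groups that did not overlap, against 8.32% and 9.95% of all genes. The largest difference was that of Hoxa4 between hPTH(1-31) and hPTH(1-34), 0.46 with a 95% interval from 0.12 to 0.80 (adjusted p = 0.999). All 36 intervals of both contrasts lay within 2-fold in array signal, and 27 and 30 of them within 1.5-fold. Smaller differences in signal are therefore not excluded, and changes in transcript amount are not bounded.

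The moderated F test, which asks for any difference among the 7 groups, called 2 members (background 12.2%). They were Hoxa7 (limma adjusted p = 0.00449) and Hoxc11 (adjusted p = 0.0162), a gene of the lower trunk and limbs. Hoxc11 had signals of 3.27, 3.20 and 3.28 with vehicle and 3.77, 3.61 and 3.66 with bPTH(7-34) at 1000 nM. Its vehicle mean of 3.25 is below the sensory receptor reference of 3.47. The bPTH(7-34) arrays were above all 18 others, the highest of which was an hPTH(1-34) array at 3.51. In the contrast with vehicle alone the difference was 0.43 ± 0.12 without a call (adjusted p = 0.782). The F test call of Hoxc11 was lost without bPTH(7-34) replicate 1 or 3, with an adjusted p of at most 0.0932, whereas that of Hoxa7 was kept whichever array was left out.

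Some members had larger differences without a call. With hPTH(1-34), Hoxd12, a limb gene, had signals of 3.40, 2.85 and 2.92 against 3.73, 3.64 and 3.31 with vehicle, a difference of -0.50 (limma adjusted p = 0.137) in which the groups overlapped. Hoxc13, known for its role in hair, had signals of 2.93, 3.39 and 3.02 with vehicle, 3.39, 3.72 and 3.73 with bPTH(3-34) and 4.02, 3.46 and 3.65 with bPTH(7-34). Its differences from vehicle were 0.50 (adjusted p = 0.713) and 0.60 (adjusted p = 0.782). Hoxc5 with PTH(1-36) had 1.81, 1.74 and 1.85 against 2.29, 2.13 and 2.17 with vehicle, a difference of -0.40 (adjusted p = 0.174) at a signal below the array median. The largest difference with hPTH(1-31) was that of Hoxa2, given above.

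Hoxd8 was called in no contrast. Its group differences from vehicle ran from -0.17 with hPTH(1-31) to -0.03 with hPTH(7-34), and the 95% interval for hPTH(1-34) was -0.36 to 0.15. Rows with several symbols gave no call against vehicle. On the 2 rows that carry Hoxa11 with its antisense gene Hoxa11os the vehicle means were 2.76 and 3.73, and on the row of Hoxd4 with Hoxd3 it was 3.81, so these genes cannot be told apart there. The smallest adjusted p against vehicle over the 7 rows with several symbols and the other Hoxb5 row was 0.384.

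Among the partners, Meis3 fell by 0.48 ± 0.13 with hPTH(1-34) (limma adjusted p = 0.0270), by 0.52 with hPTH(1-31) (adjusted p = 0.0148) and by 0.59 with PTH(1-36) (adjusted p = 0.00726). It was the only cofactor of 8 called with hPTH(1-34) or hPTH(1-31), where 8.64% and 8.70% of all genes were called. With PTH(1-36) Meis2 also rose, by 0.26 (adjusted p = 0.0387). Of 23 polycomb and trithorax genes 0 were called with hPTH(1-34) in limma (3 at an unadjusted p under 0.05), against 8.64% (19.7% unadjusted) of all genes. With PTH(1-36), where 7.23% of all genes were called, Eed rose by 0.42 (limma adjusted p = 0.0209) and Ezh1 fell by 0.39 (adjusted p = 0.0296). Eed is a core subunit of a polycomb complex that methylates histone H3. The noncoding genes of the clusters gave 0 calls against vehicle in limma under any of the 6 treatments, with 2 at an unadjusted p under 0.05 for bPTH(3-34), 1 for hPTH(7-34) and 0 for each of the others. Between bPTH(3-34) and hPTH(1-34), where 9.32% of all genes were called, Mir10b was higher by 0.67 (1.85 against 1.19, limma adjusted p = 0.0230). Mir196a-2 was lower there by 0.33 (1.65 against 1.98, adjusted p = 0.0361). Mir615 was lower with hPTH(7-34) than with hPTH(1-34) by 0.61 (2.79 against 3.40, limma adjusted p = 0.0126), where 10.9% of all genes were called. All these microRNA levels lay below the sensory receptor reference, and these calls were not refitted with arrays left out.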

How the data were processed

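Total RNA (100 ng) from each of 21 cultures was labelled and hybridised to 1 array. The authors deposited 1 table of log2 signals. RMA is given as the method and Affymetrix Expression Console as the software, per the submitters' processing notes. The base of the logarithm is not stated and was read as log2 from the method and the range (0.25 to 13.6). Further steps and versions are not given in the sources used here. RMA by its usual steps makes arrays share 1 distribution, so a shift common to most genes would not be seen.

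Of 41345 rows, 25335 were named by the platform annotation, 23521 with 1 symbol and 1814 with several, and 16010 were unnamed here. Rows with 1 symbol were used, the one with the highest mean for each gene, which left 22180 genes. With R 4.3.3, lmFit and eBayes of limma 3.58.1 fitted all arrays in a single model with a term for each of the 7 treatments. Adjusted p-values are two-sided and by Benjamini-Hochberg over all genes. They set each difference against the spread between cultures of the same treatment, estimated over all 7 treatments. Errors are SD for groups and SE for differences, and the number of arrays limits the precision.

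Named in full are members above the sensory receptor reference, those called, and the largest difference of each contrast with vehicle. Of other lists at most 6 genes are named by size of change or level, and further ones were chosen after their values were seen. The split by paralog number was made after the values were seen. The members and lists were chosen with earlier results of these data known. Pairing of arrays by replicate number was weak: deviations of 63 same-numbered pairs correlated at -0.08 to 0.16 (median 0.03), with 1 pair over 0.1. Pairs with different numbers correlated at -0.14 to 0.09 (median -0.01). Alternatives were the replicate number as a block, other filters, scalings, variance models and sample sets, and leaving out each array.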

Additional observations from a re-analysis of the deposited data

How the results depend on the processing

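No direction reversed among the differences of called members, the only values here that have a direction. Alternatives other than leaving out 1 array gave 160 values. Of these, 120 kept their side of the threshold, or for counts lay within 1.5 times. Another 21 counts moved, and 19 adjusted p-values of calls fell short of the threshold. Many of the 160 are counts, some of them 0 in the main fit, so the 120 does not measure how stable the calls were. With the replicate number as a block, the call of Hoxb9 between hPTH(7-34) and hPTH(1-34) was lost (adjusted p = 0.0529) and Hoxc10 took its place, so that 2 members were still called there, and no other call changed. Pairing by number was weak in the correlations, though 14 of 21 arrays correlated best with their own number. A filter to genes above the median mean level kept 3 HOX genes and dropped Hoxa7, Hoxd1, Hoxb9 and Hoxc11. Calls of the dropped genes were therefore not tested there. Among the genes kept, the members called became 0 for hPTH(1-34), 0 for hPTH(7-34) and 0 between these peptides. They became 1 (Hoxa2) for the intact peptides against bPTH(3-34) and 0 by the F test. With all rows tested they became 0 for hPTH(1-34), 0 for hPTH(7-34) against hPTH(1-34), 0 for the intact peptides against vehicle and 1 (Hoxd1) against bPTH(3-34). With quantile normalization again they became 0 for hPTH(7-34) against hPTH(1-34). With a trended, robust variance they became 0 for hPTH(1-34), 0 for hPTH(7-34) against hPTH(1-34) and 0 for the intact peptides against vehicle. With only the groups of a contrast fitted they became 0 for hPTH(1-34), 0 for hPTH(7-34), 0 for bPTH(3-34) against hPTH(1-34), 1 (Hoxc10) for hPTH(7-34) against hPTH(1-34), 0 for the intact peptides against vehicle and 1 (Hoxd1) against bPTH(3-34). The cause was not tested beyond the fewer genes or arrays that these fits hold. Members above the reference were 3 by the 99th percentile, 9 by the array median and 19 by the mean of all arrays.

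Leaving out 1 array at a time gave 0 to 1 members called for hPTH(1-34), PTH(1-36), hPTH(7-34) and bPTH(3-34) against hPTH(1-34) (for PTH(1-36) the 1 was Hoxc9, without its replicate 3), 0 to 3 for hPTH(7-34) against hPTH(1-34), 0 to 2 for the intact peptides against vehicle and against bPTH(3-34), 1 to 3 by the F test, and 0 throughout for the other contrasts. Members above the reference were 14 to 15. Most members lay below the array median, where a fold may be understated.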

Other observations

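Genes of the retinoic acid pathway, a known inducer of HOX genes in embryos, changed with the peptides that keep the N-terminal end. With hPTH(1-34), 5 of 17 measured genes rose and 2 fell in limma (background 8.64% of all genes). Rdh10 and Aldh1a3, enzymes of retinoic acid synthesis, rose by 1.66 ± 0.13 and 1.36 ± 0.20 (log2, SE; adjusted p = 8.4e-08 and 0.00012). Crabp2, a retinoic acid carrier, rose by 1.25 (adjusted p = 6.8e-07), the receptor Rara by 0.63 (adjusted p = 0.00335) and Cyp26b1, which degrades retinoic acid, by 0.35 (adjusted p = 0.0378). Aldh1a1 fell by 0.43 and the receptor Rxra by 0.36 (adjusted p = 0.00394 and 0.0232). With hPTH(1-31) 6 rose and 0 fell (background 8.70%), and with PTH(1-36) 5 rose and 0 fell (7.23%). With bPTH(3-34), hPTH(7-34) and bPTH(7-34) 0 of 17 were called by limma, with 1, 0 and 3 at an unadjusted p under 0.05 (5.92%, 8.19% and 5.19% of all genes). In the same hPTH(1-34) arrays the single HOX call was the fall of Hoxa7. Markers of cell types moved in these contrasts too. With hPTH(1-34), Pth1r and Sp7 of the osteoblast list fell by 1.10 and 0.56 (adjusted p = 5.4e-06 and 0.0111) and Alpl rose by 0.56 (adjusted p = 0.0012), 3 of 7 measured. Tek, 1 of 5 endothelial markers, fell by 0.65 (adjusted p = 0.0330), and Tubb3, 1 of 6 neuronal markers, rose by 1.05 (adjusted p = 0.0010). With PTH(1-36) Pth1r, Sp7 and Tek fell by 1.02, 0.71 and 0.83, and Tubb3 and Kdr rose by 1.15 and 0.61 (adjusted p of at most 0.0185). With hPTH(1-31) the same 5 genes and Alpl were called in these directions (adjusted p of at most 0.0127). Their part in the retinoid changes was not tested. This list was chosen with earlier results of these data known, and no link between the pathway and the HOX signals was tested.

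Of the homeobox genes that pattern the head, Gsc rose with hPTH(1-34) by 0.91 ± 0.15 (limma adjusted p = 0.00038), with hPTH(1-31) by 0.78 (adjusted p = 0.0017) and with PTH(1-36) by 0.86 (adjusted p = 0.00076). It was the only one of 24 called with hPTH(1-34) or PTH(1-36), against 8.64% and 7.23% of all genes. With hPTH(1-31) Alx4 also rose by 0.38 (adjusted p = 0.0276) and Prrx2 fell by 0.43 (adjusted p = 0.0464). Among the genes that flank the clusters, Atf7, Cbx5 and Calcoco1, which lie beside HOXC, fell with hPTH(1-34) by 0.46, 0.40 and 0.36 (adjusted p = 0.00051, 0.0285 and 0.0350), 3 of 22 measured flanking genes, against 8.64% of all genes.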
